A study of Mus musculus with 5 samples.

Results

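Toll-like receptors are membrane proteins that recognise conserved molecules of microbes, and 9 of their genes were followed here together with Unc93b1 in 2 blood cell progenitors of the mouse. The members were taken by gene symbol, as all probe sets whose annotation gives 1 symbol from the list Tlr1, Tlr2, Tlr3, Tlr4, Tlr6, Tlr7, Tlr8, Tlr9, Tlr13 and Unc93b1. These 10 genes, of 18193 genes named on the array, were represented by 16 probe sets. A probe set is a group of short probes whose signals are summarised into 1 value.

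Expression was measured on 5 Affymetrix mouse arrays, 3 of common dendritic cell progenitors (CDP) and 2 of common myeloid progenitors (CMP). Both populations were sorted from marrow of wild type C57BL/6 mice, and no age or treatment is given. Both lacked lineage markers, Sca-1 and CD16/32 and carried CD34 and Flk2. The gate for CDP took cells with CD115 and an intermediate level of c-kit. That for CMP took cells of high c-kit with neither CD115 nor CD11c. Each array used RNA from 10000 to 30000 cells that had been sorted and then sorted again, amplified over 2 cycles. The series' title concerns IRF-8 and commitment to the dendritic lineage, and the comparison here asks which of these receptor genes were already on in the progenitor of dendritic cells. The labels do not tie the arrays to different mice or sorts, and the p-values therefore rest on a spread among arrays that may be technical. In a sorted population measured in bulk, fewer cells with a transcript and less of it per cell cannot be told apart.

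Toll-like receptors fall into those of the cell surface and those of endosomes. At the surface, TLR2 pairs with TLR1 to bind triacylated bacterial lipopeptides or with TLR6 to bind diacylated ones, and TLR4 with its partner MD-2 binds lipopolysaccharide. In endosomes, TLR3, TLR7, TLR8, TLR9 and mouse TLR13 meet nucleic acids, and they depend on UNC93B1, a membrane protein that carries them out of the endoplasmic reticulum. Mature dendritic cells, monocytes and neutrophils use different sets of these receptors, with TLR7 and TLR9 characteristic of plasmacytoid dendritic cells.

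Of the 10 genes, Tlr1, Tlr2 and Unc93b1 were detected, and all 3 lay higher on every CDP array than on every CMP array. The other 7 stayed below log2 5 on all 5 arrays on each of their 13 probe sets. Log2 5 was the detection level used here, and a probe set was tested only where at least 2 arrays reached it. Of all genes with a named probe set, 46.4% had 1 that was tested, against 3 of these 10. With limma, a linear model whose variances are moderated over all tested probe sets, Tlr1 was the 1 member called higher in CDP at an adjusted p under 0.05, and 0 were called lower. At 1 probe set per gene, 1.67% of all 8449 tested genes were called higher and 0.473% lower in CDP. Groups that did not overlap, with CDP above, were seen in 23.7% of tested genes. At an unadjusted p under 0.05 the members called were 3 higher and 0 lower, where 12.6% of all tested genes were higher and 4.52% lower.

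**Figure D1:**
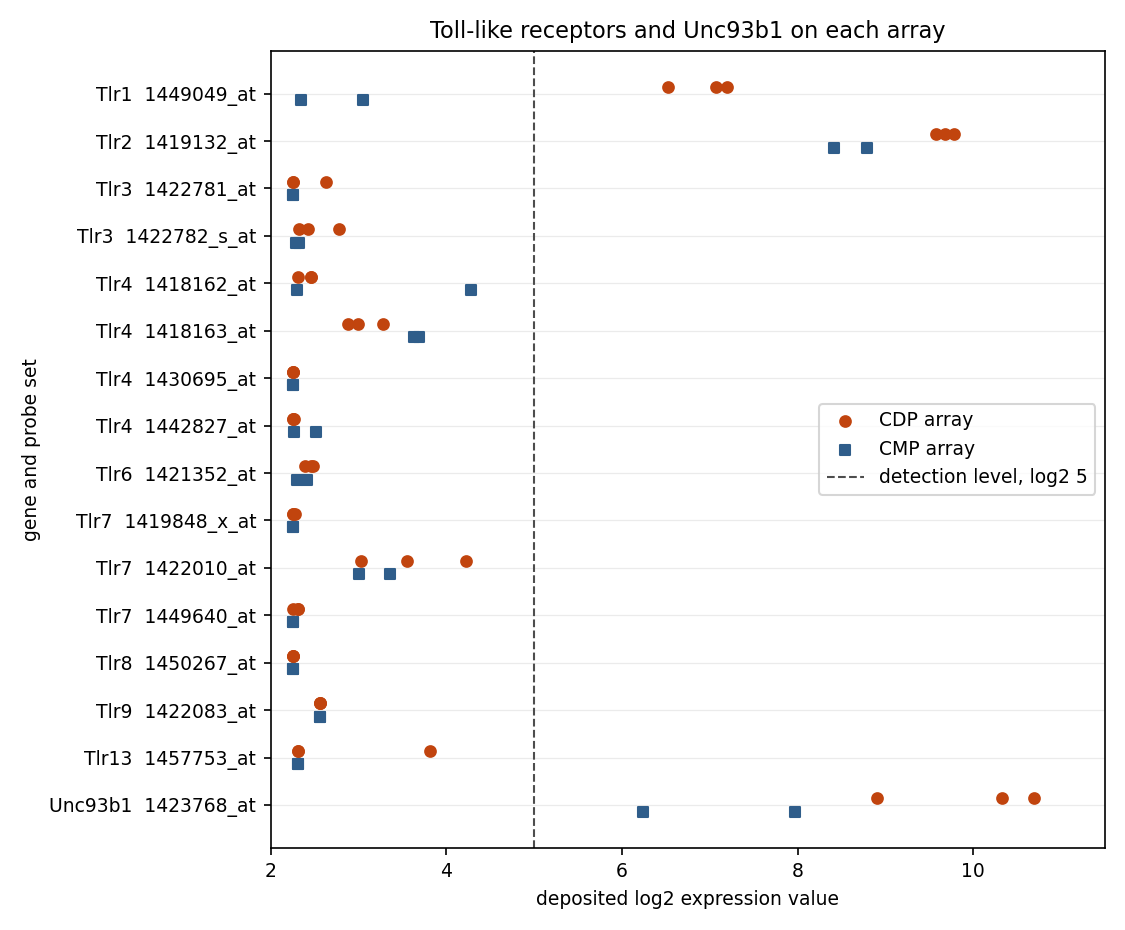
Deposited log2 expression value (horizontal axis) of each of the 16 probe sets of the 10 genes (rows) on the 3 CDP arrays (circles) and the 2 CMP arrays (squares). The dashed line is the detection level of log2 5, which Tlr2 and Unc93b1 passed on all 5 arrays and Tlr1 on the 3 CDP arrays.

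The stretch around the transcription start is shown for 3 members: Tlr1 and Tlr2, which encode the 2 chains of 1 receptor and were both detected, and Tlr6, the alternative partner of TLR2, which was not. Tlr1 and Tlr6 are next to each other on chromosome 5 in the RefSeq annotation. The sequences are from RefSeq on GRCm38.p6 and run 5′ to 3′ on the gene's own strand, which is the minus strand for all 3, from 250 bases before to 50 bases after the start. Tlr1 and Tlr6 each have a second start in that table, not printed. Unc93b1, Tlr4 and Tlr7 had no entry. Capitals mark matches to 4 motifs searched on both strands.

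Tlr1, chr5:64933509-64933808: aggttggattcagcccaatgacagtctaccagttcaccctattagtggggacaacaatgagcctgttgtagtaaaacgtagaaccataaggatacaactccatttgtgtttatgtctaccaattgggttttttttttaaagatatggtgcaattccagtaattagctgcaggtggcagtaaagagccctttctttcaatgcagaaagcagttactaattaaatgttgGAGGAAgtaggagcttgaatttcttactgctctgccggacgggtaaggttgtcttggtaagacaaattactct

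Tlr2, chr3:83841559-83841858: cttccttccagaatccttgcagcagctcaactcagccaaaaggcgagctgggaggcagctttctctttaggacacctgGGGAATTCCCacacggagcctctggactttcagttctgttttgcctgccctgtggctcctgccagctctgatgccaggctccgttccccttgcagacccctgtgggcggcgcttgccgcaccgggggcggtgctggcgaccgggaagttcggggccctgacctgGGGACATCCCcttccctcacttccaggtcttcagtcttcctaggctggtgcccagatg

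Tlr6, chr5:64959117-64959416: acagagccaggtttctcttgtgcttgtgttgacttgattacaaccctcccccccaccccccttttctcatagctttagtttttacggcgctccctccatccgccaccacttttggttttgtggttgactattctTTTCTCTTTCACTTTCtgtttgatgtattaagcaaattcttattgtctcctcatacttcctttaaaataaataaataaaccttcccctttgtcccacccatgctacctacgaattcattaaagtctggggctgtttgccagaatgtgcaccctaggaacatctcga

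The motifs were GAGGAA, the core of PU.1 sites and of some other ETS factors, GAAANNGAAA for IRF factors, GGAANNGAAA for a joint ETS and IRF site, and GGGANNNNCC for NF-kB. The ETS core ends with the letters that open the joint site, so the 2 can share bases, and both IRF motifs end in GAAA. The Tlr1 stretch held 1 ETS core, beginning 23 bases before the start, and 0 matches to the other 3 motifs. The Tlr2 stretch held the NF-kB motif at 2 places, beginning 172 and 8 bases before the start, and both places matched on both strands. The Tlr6 stretch held 2 overlapping IRF matches on the opposite strand, beginning 116 and 110 bases before the start. At the second starts of Tlr1 and Tlr6, not printed, there were 0 matches to these motifs. The ETS core was also held by Tlr8, Tlr9 and Tlr13, and the NF-kB motif by Tlr3, all of them undetected genes. Of 32851 promoters of this length in the table, 28.3% held the ETS core, 20.7% the NF-kB motif, 3.44% the IRF motif and 2.72% the joint motif. These are matches of letters and do not show binding.

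Tlr1, which encodes the partner of TLR2 for triacylated lipopeptides, was detected in CDP alone. Its 1 probe set, 1449049_at, had log2 values of 6.53, 7.19 and 7.07 on CDP 1, CDP 2 and CDP 3, against 2.35 and 3.05 on CMP 1 and CMP 2. The 3 CDP arrays were alike and all above the detection level, and both CMP arrays lay below it, near the table's lowest value of 2.256. The means were 6.93 ± 0.35 (SD, n = 3) in CDP and 2.70 ± 0.49 (SD, n = 2) in CMP. The log2 difference was 4.23 ± 0.39 (SE), with an adjusted p of 0.0155 (limma, Benjamini-Hochberg over 16552 probe sets). Tlr1 passed the filter through its CDP arrays alone, and this difference and p use CMP values below the detection level. With no filter the adjusted p was 0.124 (limma), and Tlr1 was not called. Since the CMP values are not detected, the fold is given as a lower bound, with values below log2 5 set to 5, and Tlr1 was at least 3.81-fold higher in CDP. Leaving out CDP 2, CDP 3, CMP 1 or CMP 2 gave differences of 4.10, 4.16, 3.88 and 4.58 and ended the call, with adjusted p = 0.110, 0.121, 0.108 and 0.0817 in limma. In each of these 4 fits no gene of the whole table was called higher in CDP.

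Tlr2, which encodes the shared chain of the lipopeptide receptors, was detected in both progenitors. Its probe set 1419132_at had log2 values of 9.78, 9.68 and 9.58 on CDP 1 to 3, against 8.42 and 8.79 on CMP 1 and CMP 2. The lowest CDP array was above the higher CMP array, and the CDP arrays spread by little. The means were 9.68 ± 0.10 (SD, n = 3) in CDP and 8.61 ± 0.26 (SD, n = 2) in CMP, a log2 difference of 1.07 ± 0.31 (SE) or 2.11-fold. It did not pass the threshold (limma, unadjusted p = 0.0133, adjusted p = 0.176). The 95% interval of the difference ran from 0.32 to 1.83.

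Unc93b1, which encodes the carrier of the endosomal receptors, was also detected in both progenitors. Its probe set 1423768_at had log2 values of 8.90, 10.69 and 10.33 on CDP 1 to 3, against 6.24 and 7.97 on CMP 1 and CMP 2. Every CDP array was above both CMP arrays, with CDP 1 and CMP 1 the lowest of their groups. The means were 9.97 ± 0.95 (SD, n = 3) in CDP and 7.11 ± 1.23 (SD, n = 2) in CMP. The log2 difference of 2.87 ± 0.73 (SE), or 7.30-fold, did not pass (limma, unadjusted p = 0.00733, adjusted p = 0.137), and its 95% interval ran from 1.09 to 4.64. The fold was 4.003 without CMP 1 and 13.3 without CMP 2.

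The low arrays for Unc93b1 were also those with little signal from the 5′ end of a control transcript. The array's 5′ beta-actin control was at 6.54, 12.97 and 10.52 on CDP 1 to 3 and at 6.71 and 12.40 on the 2 CMP arrays, while its 3′ control varied only between 14.06 and 15.10. Amplified RNA loses its 5′ end first, so this pair is a measure of how long the labelled copies were. The 5′ Gapdh control divided the arrays otherwise, with CDP 3 lowest. It was at 7.66, 10.16 and 7.40 on CDP 1 to 3 and at 7.57 and 10.97 on the 2 CMP arrays. Low in 5′ signal here means low in 5′ beta-actin, and the split rests on that control alone. Between the 2 arrays low in 5′ signal, Unc93b1 was 2.67 higher in CDP (log2), and between the others it was 2.54 higher. With the 2 kinds of array as a block, the difference was 2.59 ± 0.27 (SE) and passed (limma, adjusted p = 0.00595). That block also raised the calls over the whole table, from 141 to 600 genes higher and from 40 to 225 lower in CDP. The replicate number as a block gave 2.69 ± 0.32 (SE, limma, adjusted p = 0.0181). CDP 3 is alone in its number, so this difference rests on the arrays numbered 1 and 2 and equals that without CDP 3. With the replicate block, 254 genes of the whole table were called higher and 98 lower. Tlr1 differed by 4.18 between the arrays low in 5′ signal and by 4.08 between the others, and Tlr2 by 1.36 and 0.84.

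**Figure D2:**
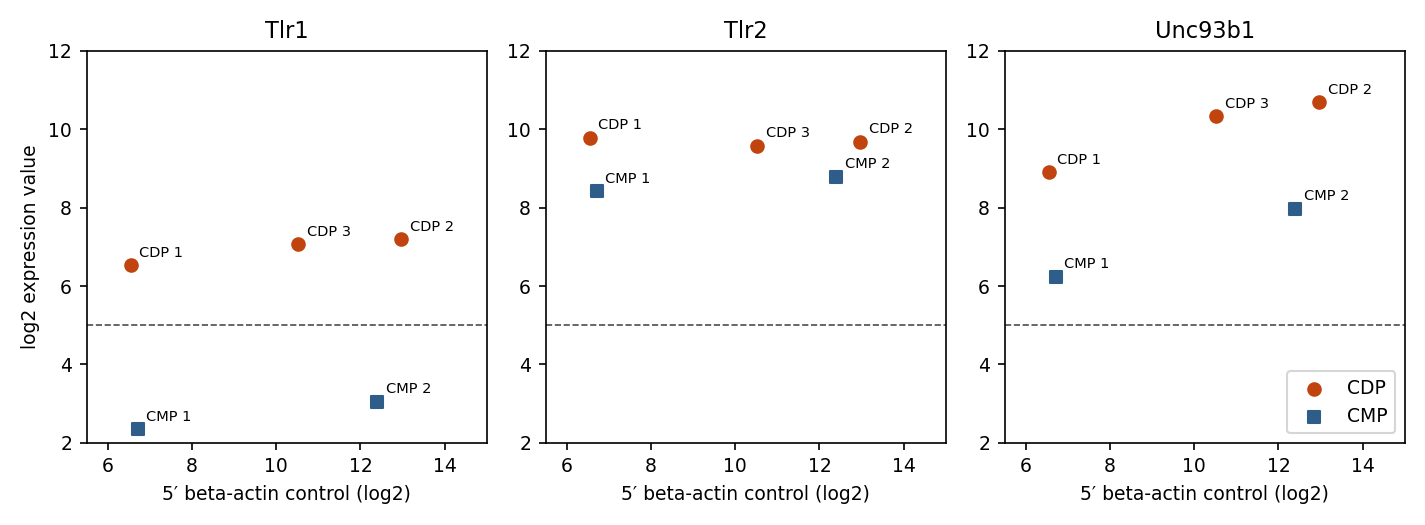
Log2 expression value of Tlr1, Tlr2 and Unc93b1 (vertical axis) against the log2 value of the 5′ beta-actin control (horizontal axis) on each of the 3 CDP arrays (circles) and 2 CMP arrays (squares), with the detection level of log2 5 dashed. Unc93b1 was lowest on the array with the least 5′ beta-actin signal in each group, at 8.90 on CDP 1 and 6.24 on CMP 1. CDP stayed above CMP at either end of the axis.

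**Figure D3:**
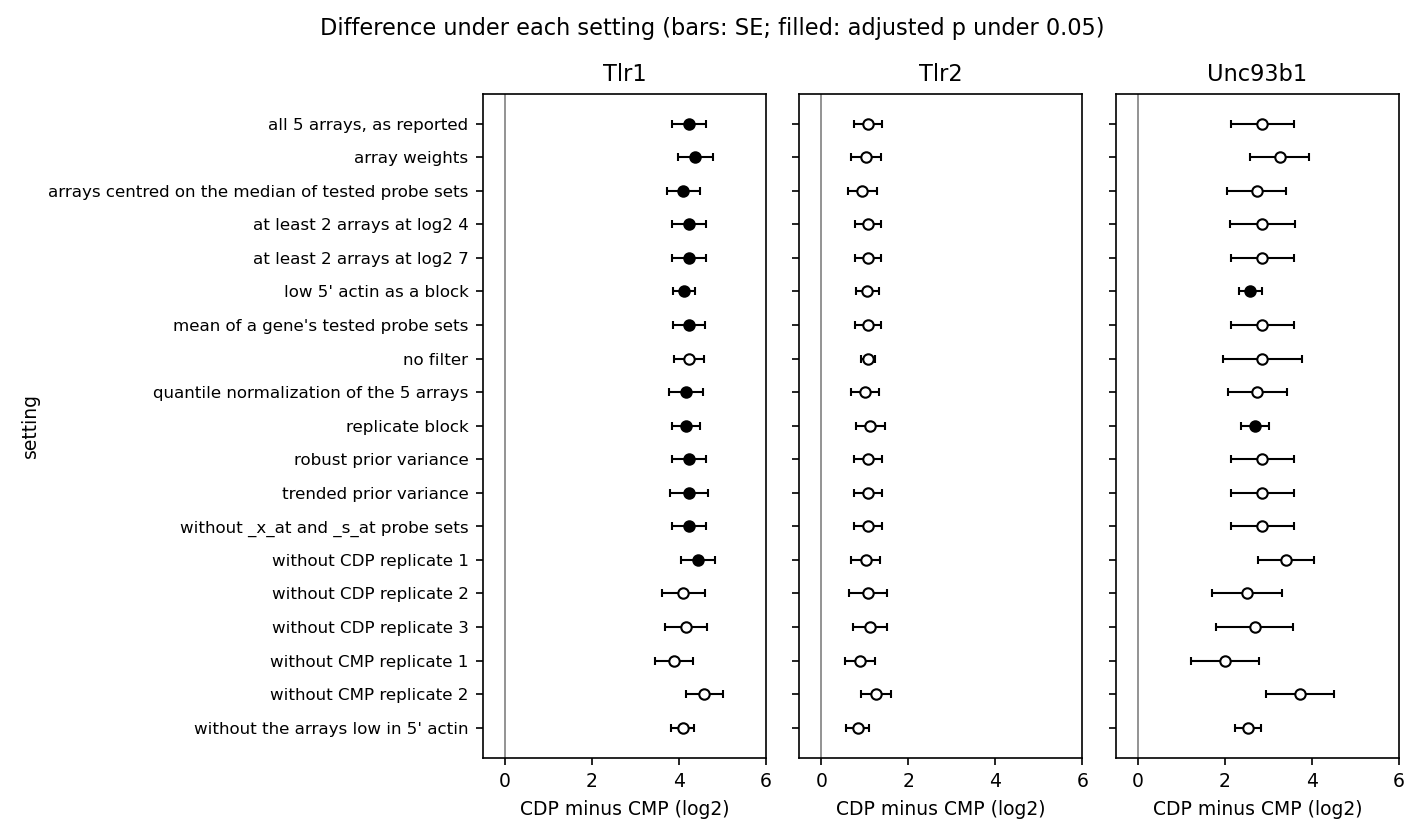
Log2 difference, CDP minus CMP, of Tlr1, Tlr2 and Unc93b1 (horizontal axis) in the fit as reported and under 18 other settings (rows), with bars of 1 SE. Filled points passed an adjusted p of 0.05, and all points lay above 0. Tlr1 passed in 12 of the 18 other settings, Unc93b1 in 2 and Tlr2 in 0.

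The remaining surface receptors were not detected in either progenitor. Tlr6 lay between 2.39 and 2.48 on the CDP arrays and at 2.30 and 2.41 on the CMP arrays. Tlr4, the lipopolysaccharide receptor, had 4 probe sets, and the one with the highest value was at 2.31, 2.46 and 2.46 on CDP 1 to 3, against 4.28 and 2.29 on CMP 1 and CMP 2. A second Tlr4 probe set, 1418163_at, was at 2.88, 3.27 and 2.99 on CDP 1 to 3, against 3.69 and 3.63 on CMP 1 and CMP 2. The CMP values were the higher ones there, but all 5 lie below the detection level, where the values were not tested. The other 2 Tlr4 probe sets did not exceed 2.51 on any array.

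The endosomal receptors were not detected either, although their carrier was. A value below the detection level does not show that a transcript was absent. Tlr7, a receptor for single-stranded RNA, came closest on its probe set 1422010_at, with 3.02, 3.56 and 4.22 on CDP 1 to 3, against 3.36 and 3.01 on CMP 1 and CMP 2. These groups overlapped, and its 2 other probe sets did not exceed 2.31. Tlr9, the receptor for unmethylated CpG DNA, was at 2.56 on all 5 arrays, and the values of Tlr8 were the lowest in the table on each array. Tlr3, the receptor for double-stranded RNA, reached 2.78 at most, on CDP 3. Tlr13, which in mice binds bacterial ribosomal RNA, was at 3.81 on CDP 2 and at 2.32 on each of the other 4 arrays.

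CDP 2 also stood apart in transcripts of neutrophils and in 1 erythroid gene. Of 13 neutrophil marker genes with a probe set, 11 reached log2 5 on CDP 2, and 1, Csf3r, on each other array. The summed log2 value of the 13 was 110.1 on CDP 2, against 36.6 and 38.4 on the other CDP arrays and 41.6 and 41.8 on the CMP arrays. S100a8, a defining neutrophil gene, was at 12.52 on CDP 2 and at most 3.404 elsewhere. Tlr1 was detected on CDP 1 and CDP 3 as well, and without CDP 2 the log2 differences were 4.10 for Tlr1, 1.07 for Tlr2 and 2.51 for Unc93b1. Slc4a1, which encodes the anion exchanger of red cells, was at 9.89 on CDP 2 and at most 2.34 on the other arrays. The summed value of 5 erythroid genes was 29.1 on CDP 2, against 16.7 and 15.2 on CDP 1 and CDP 3 and 22.0 and 17.7 on CMP 1 and CMP 2. The part of neutrophil or erythroid transcripts in the Tlr13 value was not tested.

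Markers of monocytes moved with the group. Of 8 monocyte and macrophage genes with a probe set, 6 were detected on each CDP array and 5 on each CMP array, and their summed log2 values were 65.8 to 71.5 in CDP and 55.7 to 56.7 in CMP. Ccr2, Cx3cr1 and F13a1 were called higher in CDP, each on its brightest probe set (limma, adjusted p = 0.0456, 0.0456 and 0.0481). Ms4a6c, Adgre1 and Lyz2 had higher means in CDP without passing, and Lyz2 overlapped between the groups. Itgam and Mrc1 were below log2 5 on all 5 arrays. Of 9 plasmacytoid dendritic cell genes, 2 to 5 were detected in CDP and 2 to 3 in CMP, with sums of 39.5 to 47.2 and 36.2 to 40.1. Siglech, Ly6d, Ccr9 and Pacsin1 were below the level on every array. Klk1, detected on all 5 arrays on 1 probe set, was lower on every CDP array without passing (limma, adjusted p = 0.217). Its other probe sets reached 2.27 at most. Tcf4 was higher on every CDP array on its brightest probe set without passing (limma, adjusted p = 0.360). Bst2 and Cox6a2 had higher means in CDP but overlapped (limma, adjusted p = 0.751 and 0.365), and Spib reached log2 5 on CDP 2 alone. Of 8 conventional dendritic cell genes, 0 to 2 were detected in CDP and 0 to 1 in CMP, with sums of 24.4 to 30.4 and 21.9 to 23.4. Most values in these sums lay below log2 5, so the sums do not rank the groups. H2-Ab1, the gene detected in both groups, overlapped between them (limma, adjusted p = 0.916). Of 6 B cell genes, 2 were detected on each CDP array and 1 on each CMP array, with sums of 22.3 to 26.9 in CDP and 19.5 to 20.0 in CMP. Here too most of the summed values lay below log2 5. Cd79b and Vpreb1 were higher on every CDP array than on either CMP array without passing the test (limma, adjusted p = 0.272 and 0.145), and Cd79a, Ms4a1, Pax5 and Ebf1 were below the level throughout. The part of these cell types in the member values was not tested.

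The genes of the sorting gate followed the labels in part. Kit was at 7.54 ± 0.31 (SD, n = 3) in CDP and 10.12 ± 0.11 (SD, n = 2) in CMP, and Itgax, which encodes CD11c, was detected in CDP alone. Csf1r, which encodes CD115, was abundant in both, at 13.02 ± 0.12 (SD, n = 3) in CDP and 11.39 ± 0.51 (SD, n = 2) in CMP on its brightest probe set, although CMP were gated as lacking CD115. Both gates also excluded CD16/32, yet Fcgr2b, which encodes CD32, was at 9.25, 9.36 and 10.25 on CDP 1 to 3, against 9.01 and 8.72 on CMP 1 and CMP 2. Fcgr3, which encodes CD16, lay between 4.60 and 5.40 in CDP and at 4.83 and 5.38 in CMP.

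The other genes of the pathway were followed as 8 lists covering 90 genes, of which 81 had a probe set and 58 were tested. Of these 58, 5 were called higher in CDP, 0 lower, and 53 did not pass. Of all tested genes, 1.67% were called higher and 0.473% lower. The median log2 difference was 0.24 over the 58 and 0.17 over all tested genes. The 5 were Lgmn, Pld4, Ctss, Irf8 and Irf5. At an unadjusted p under 0.05, 10 of the 58 were higher and 4 lower in CDP, beside the 12.6% and 4.52% of all tested genes. Without CDP 1, 2 pathway genes were called, and without any 1 of the other arrays 0 were. In the lists, 14 tested genes had every CDP array above every CMP array and 9 had every CDP array below, where 23.7% and 10.8% of all tested genes did.

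Genes that act on the endosomal receptors or their ligands held 3 of the 5 calls. Of 7 tested genes of endosomal processing, 3 were called higher and 4 did not pass, beside 1.67% of all tested genes called higher. The median difference of the 7 was 2.11. Lgmn encodes asparagine endopeptidase, a protease that can cleave TLR9 into its active form. It was at 7.81, 8.49 and 8.57 on CDP 1 to 3, against 2.61 and 2.82 on CMP 1 and CMP 2, which is at least 9.77-fold more in CDP (limma, adjusted p = 0.00785). Ctss, which encodes the protease cathepsin S, was at 13.70, 13.89 and 13.45 in CDP against 11.36 and 11.79 in CMP, a difference of 2.11 ± 0.33 (SE, limma, adjusted p = 0.0453). In Ctss, detected on all 5 arrays, the groups were wide apart compared with their spread. Pld4, an endolysosomal exonuclease that degrades single-stranded ligands of TLR7 and TLR9, was at 7.80, 10.07 and 9.81 in CDP against 3.02 and 4.24 in CMP. The rise in CDP was at least 18.7-fold (limma, adjusted p = 0.0357), or at least 30.6-fold without CDP 1. Lgmn and Pld4 passed the filter through their CDP arrays alone, and their tests use CMP values below the detection level. Ctsb, which encodes cathepsin B, had a log2 difference of 2.16 ± 0.45 (SE) and did not pass (limma, adjusted p = 0.0858).

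Of the folding and transport genes that the receptors share, all 10 were tested and 0 passed, with a median difference of 0.21. Hsp90b1 and Cnpy3, the chaperone and its helper that fold most Toll-like receptors, were at log2 differences of -0.13 ± 0.57 (SE) and 0.12 ± 0.63 (SE), and both were detected on all arrays. The widest differences in the list were those of Slc15a4, an endolysosomal transporter needed for TLR7 and TLR9 responses, at 1.44 ± 0.63 (SE), and of Pikfyve, a lipid kinase of endosomes, at -1.13 ± 0.48 (SE).

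Of 6 co-receptor genes, 3 were tested and 0 passed. Ly86, which encodes MD-1, came close. It was at 11.90, 11.77 and 11.95 on CDP 1 to 3, against 10.03 and 10.15 on CMP 1 and CMP 2, a difference of 1.78 ± 0.30 (SE, limma, adjusted p = 0.0502). Its groups were far apart, yet Cd180, the receptor that MD-1 accompanies, was at most 2.70 on any array. Ly96, which encodes MD-2 and accompanies TLR4, was likewise undetected, at 3.18 at most. Cd14, which hands lipopolysaccharide and lipopeptides to the receptors, was at 5.06, 6.82 and 6.89 in CDP against 2.70 and 5.56 in CMP, a difference of 2.12 ± 0.96 (SE, limma, adjusted p = 0.360). Its groups overlapped, and in each the array low in 5′ signal was the lowest.

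Among 16 tested adaptors and kinases 0 passed, with a median difference of 0.22. Myd88, the adaptor of nearly all Toll-like receptors, was at 7.66, 8.07 and 8.23 on CDP 1 to 3, against 7.28 and 7.49 on CMP 1 and CMP 2, a difference of 0.61 ± 0.33 (SE, limma, adjusted p = 0.449). The widest differences were those of Tirap, the bridging adaptor of TLR2 and TLR4, at 1.11 ± 0.35 (SE), and Pik3ap1, an adaptor of phosphoinositide 3-kinase, at 1.01 ± 0.36 (SE). Ticam1, the adaptor of TLR3, reached 4.83 at most and was not tested.

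Of 7 tested transcription factors of the pathway, 2 were called higher and 5 did not pass, beside 1.67% of all tested genes called higher. Irf5, which acts downstream of MyD88, was at 9.33, 8.94 and 9.11 on CDP 1 to 3, against 6.37 and 7.16 on CMP 1 and CMP 2, a difference of 2.36 ± 0.37 (SE, limma, adjusted p = 0.0453). Irf8, a factor that dendritic cells need for their development, was at 15.07, 15.17 and 15.26 in CDP against 12.22 and 12.89 in CMP, a difference of 2.61 ± 0.34 (SE, limma, adjusted p = 0.0318). Neither overlapped between the groups, though the second probe set of Irf8, with a log2 difference of 2.78 ± 0.53 (SE), did not pass (limma, adjusted p = 0.0694). Irf7, which drives interferon production after TLR7 and TLR9, reached 3.12 at most.

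Of 8 tested negative regulators 0 passed, and the widest differences were those of Tnfaip3, which encodes the ubiquitin-editing enzyme A20, at -1.35 ± 0.33 (SE, limma, adjusted p = 0.124) and Cyld, a deubiquitinase, at 0.84 ± 0.35 (SE). Of 16 genes that receptor signalling induces in mature cells, 7 were tested and 0 passed, and their median difference was -0.74. Cxcl2, a chemokine that attracts neutrophils, was at 7.24, 9.33 and 8.06 on CDP 1 to 3, against 11.53 and 11.02 on CMP 1 and CMP 2, a difference of -3.06 ± 0.64 (SE, limma, adjusted p = 0.0867). Ptgs2, which makes prostaglandin precursors, had a log2 difference of -1.15 ± 0.40 (SE). At an unadjusted p under 0.05, 3 of these 7 genes and 4.52% of all tested genes were lower. In 4 of the 7, Cxcl2, Ptgs2, Nfkbiz and Tnf, every CDP array lay below both CMP arrays, beside 10.8% of all tested genes. The 2 other Toll-like receptors with a probe set, Tlr5 and Tlr12, reached 2.32 at most.

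**Figure D4:**
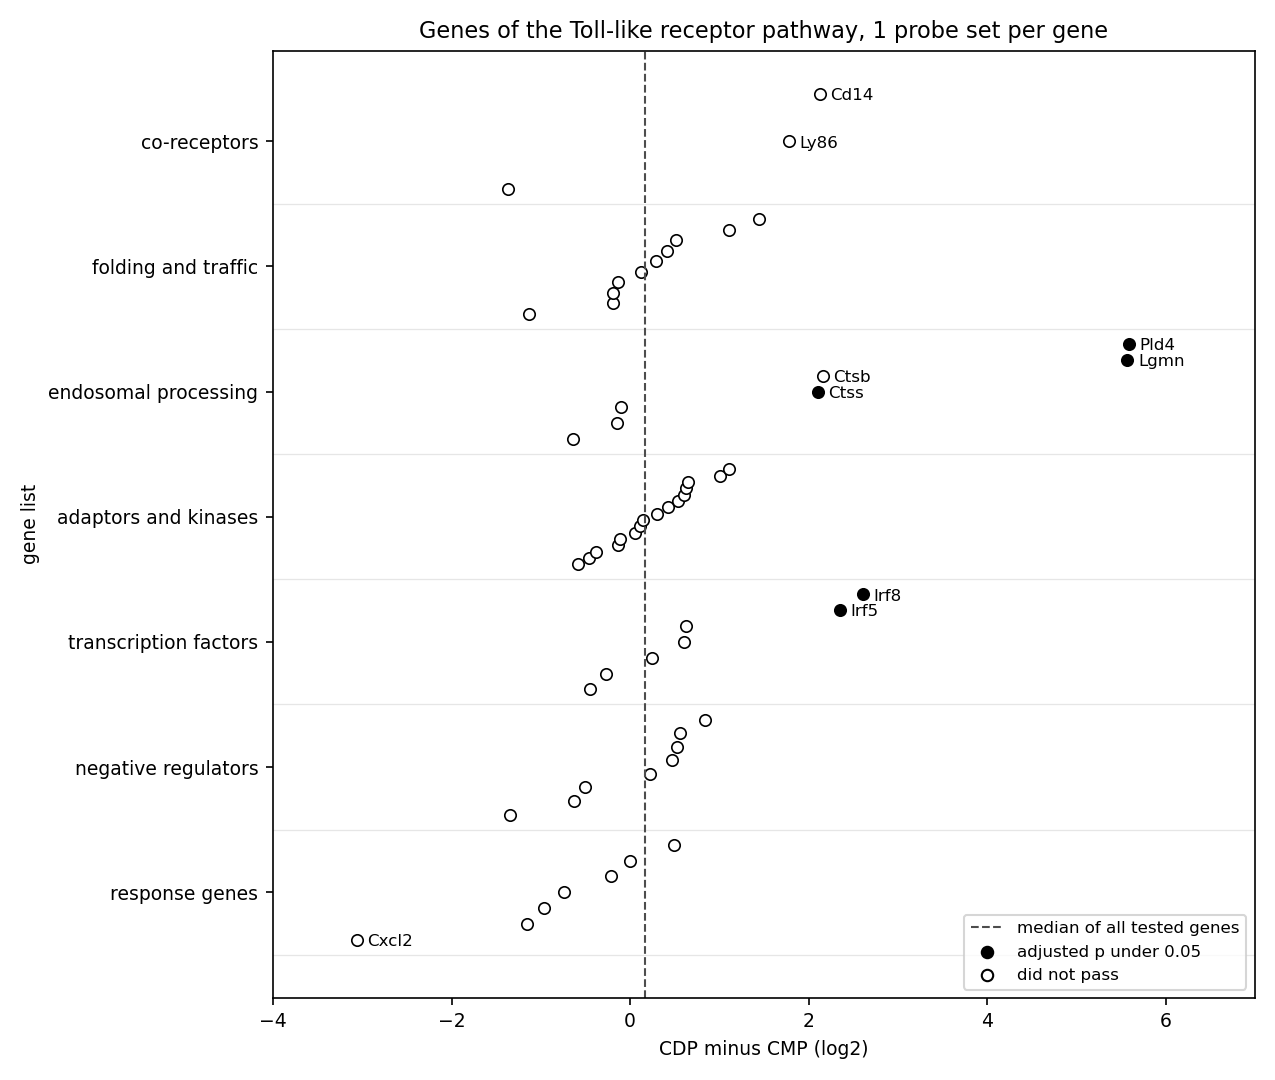
Log2 difference, CDP minus CMP (horizontal axis), of the 58 tested genes in 7 of the 8 lists (rows), each point 1 gene at its brightest probe set. Filled points passed an adjusted p of 0.05 and are Pld4, Lgmn, Ctss, Irf8 and Irf5, all higher in CDP. The dashed line is the median of all tested genes, 0.17.

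The genes whose log2 values followed each detected member most closely were ranked by Pearson correlation over the 5 arrays, a description in which the split between CDP and CMP weighs heavily. For Tlr1 they were Ggh, Tyrobp and Phlpp2 (r from 0.9992 to 0.9997), for Tlr2 Tyms, Ncapg2 and Mycl (0.9964 to 0.9991) and for Unc93b1 the unnamed transcript A930013F10Rik, Cdc45 and Tecpr1 (0.9981 to 0.9992). Tyrobp encodes a signalling adaptor of myeloid receptors and Mycl a transcription factor, while Tyms, Ncapg2 and Cdc45 serve DNA synthesis and chromosome condensation. Among the members themselves, r was 0.971 between Tlr1 and Tlr2, 0.931 between Tlr1 and Unc93b1 and 0.879 between Tlr2 and Unc93b1. The closest genes were picked from 8449 over only 5 arrays. Every r with Tlr1 uses its CMP values, which lie below the detection level.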

How the data were processed

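Expression was analysed on 5 arrays. Per the submitters' processing notes the deposited log2 values were made with GCRMA, which corrects background, normalizes quantiles between arrays and summarises probe sets. Its version, and whether all arrays were processed together, are not given in the sources used here. The deposited log2 values run from 2.256 to 16.59, and the number of arrays limits the precision. Of 45037 probe sets without controls, 34945 had 1 gene symbol in the platform annotation, 932 several and 9160 none, and only the first were named. All 10 member symbols matched RefSeq by gene ID.

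Values were not normalized again. Probe sets with at least 2 of 5 arrays at log2 5 (16552) were compared, CDP minus CMP, with lmFit and eBayes in limma 3.58.1 (R 4.3.3), 2-sided, with Benjamini-Hochberg adjustment across all of them and a threshold of 0.05. A gene was represented by its tested probe set with the highest mean. Groups and replicate numbers came from the sample titles, and no label says that a number pairs arrays. The title of CDP 3 opens with CM where the other titles have BM, but its cell type and tissue labels are those of the other CDP arrays. The fit was checked on simulated data. Members, lists and settings were chosen with earlier results of these data known. Named were all members, every called pathway gene and the 2 tested genes of each list with the largest difference. Hsp90b1, Cnpy3, Myd88, Ctsb, Ticam1, Irf7, Cd180, Ly96, Tlr5, Tlr12, Nfkbiz and Tnf were added after their values were seen. Alternatives were other scalings, filters, variance models, array weights, blocks, probe set choices and leaving out each array.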

Additional observations from a re-analysis of the deposited data

How the results depend on the processing

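The direction of Tlr1, Tlr2 and Unc93b1 was the same in all 18 other settings, with log2 differences of 3.88 to 4.58, 0.84 to 1.26 and 2.00 to 3.74. Tlr1 kept its call in 12 of them, with adjusted p from 0.00153 to 0.124 over the 18, Tlr2 was not called in any (0.0646 to 0.536), and Unc93b1 was called in 2 (0.00595 to 0.597). Leaving out 1 array gave 0 to 1 member genes and 0 to 2 pathway genes higher in CDP, against 1 and 5 with all arrays, and a lone CMP array is then assumed to vary like CDP. Of these 5 fits, only that without CDP 1 called any gene of the table higher, 31 of them, and it kept Tlr1. Without the arrays low in 5′ signal, 0 members and 0 pathway genes were called. With no filter these counts were also 0 and 0, among many probe sets at the lowest value. A filter at log2 4 left 3 pathway genes. A block for low 5′ signal gave 2 member genes and 8 pathway genes higher and 3 pathway genes lower, where the whole table gave 600 genes higher and 225 lower, against 141 and 40. The replicate block gave 2 member genes higher, 254 genes of the table higher and 98 lower. It made no other change to a member's call. Same-numbered arrays deviated from their group means together (r = 0.606 and 0.579), which comes from the data, not the design. The deviations of 2 CMP arrays mirror each other, so these r values are not independent. The arrays numbered 1 are also those low in 5′ signal, so pairing by number and 5′ signal cannot be told apart. The cause of these changes was not tested. Values below log2 5 have no order, so the 7 undetected genes allow no statement about a difference or about absence of a transcript.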
